A study of Mus musculus with 12 samples.

Results

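The 37 genes that the mouse mitochondrial genome encodes were followed in macrophages and osteoclasts, each with and without lipopolysaccharide (LPS), found in the outer membrane of Gram-negative bacteria. They were taken as the genes on chromosome M of the GENCODE M21 annotation (build GRCm38), all with symbols starting with mt-, and they are 37 of the 54532 genes in the deposited table. They comprise 13 protein-coding genes, 2 ribosomal RNA (rRNA) genes and 22 transfer RNA (tRNA) genes. Bone marrow cells of wild-type (WT) mice, whose strain, age and sex the labels used here do not give, were expanded into macrophages with CMG, which supplies the growth factor M-CSF. The macrophage groups received no RANKL. The osteoclast groups were made from such macrophages with 100 ng/mL RANKL, the cytokine that drives osteoclast formation (the growth protocol gives a range up to that dose). On day 5, cells of either type were left untreated or given LPS at 100 ng/mL for 3 h. The 12 libraries made 4 groups of 3, and all groups were cultured in 2% CMG. The labels do not say whether the 3 libraries of a group came from separate mice or cultures, so p-values measure only the spread between these libraries, which may be technical.

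The mitochondrial genome is transcribed from both strands as long precursors, which are cut mainly at the tRNAs that punctuate them into messenger, ribosomal and transfer RNAs. Its protein-coding genes give subunits of complexes I, III and IV of the respiratory chain and of the ATP synthase, and all other subunits come from the nucleus, as do the proteins that transcribe and process mitochondrial RNA. Osteoclasts are large, multinucleated bone-resorbing cells known for being rich in mitochondria.

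The mitochondrial genome has near-copies in the nucleus, and a stretch of chromosome 1 holds 7 annotated pseudogenes in the order of their mitochondrial counterparts, with the same spacing to within 1 base. The stretch spans chr1:24611535-24616197 on the minus strand and matches positions 6381 to 11043 of chromosome M, a length of 4663 bases. The copies Gm28661 of mt-Co2, Gm10925 of mt-Atp6, Gm28437 of mt-Co3, Gm10222 of mt-Nd4l and Gm28439 of part of mt-Nd4 were identical to the member over every aligned base, and Gm29216 (mt-Co1) and Gm28438 (mt-Nd3) each had 1 mismatch. On chromosome 2, the copy Gm13340 of mt-Co1 matched in 1508 of 1545 bases. The stretches below show the difference between an identical and a diverged copy, read 5′ to 3′ on the strand of the mitochondrial gene, with bases that differ from the member in capitals. The first 90 bases of mt-Co2 (chrM:7013-7102, plus strand) are the same in Gm28661 (chr1:24615476-24615565, minus strand), while Gm13340 (chr2:22588388-22588477, minus strand) differs from mt-Co1 (chrM:6498-6587, plus strand) at 5 bases. The stretch of Gm13340 was chosen for the most differences in the part of mt-Co1 searched, so it overstates the divergence of the whole copy.
mt-Co2 and Gm28661: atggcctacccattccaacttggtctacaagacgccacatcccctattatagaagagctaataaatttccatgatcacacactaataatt
mt-Co1: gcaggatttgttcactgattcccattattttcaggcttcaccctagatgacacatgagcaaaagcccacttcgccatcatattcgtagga
Gm13340: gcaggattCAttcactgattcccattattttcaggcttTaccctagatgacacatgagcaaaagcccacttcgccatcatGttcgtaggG

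The share of each member that a copy repeats exactly was measured in windows of 100 bases. A copy repeated 99.5% of the windows of mt-Co2 and mt-Atp6, 99.9% of those of mt-Co3, 98.5% of those of mt-Nd4l and 97.6% of those of mt-Nd3. It repeated 60.8% of the windows of mt-Nd4, 30.8% of those of mt-Co1 and 3.2% of those of mt-Nd2. The windows of mt-Nd1, mt-Nd5, mt-Nd6, mt-Cytb, mt-Rnr1 and mt-Rnr2 were repeated exactly by none of the 10 copies aligned. How reads that match several places were counted is not given in the sources used here, so the levels of members with identical copies are uncertain.

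The tRNAs that stood out in the counts are shown here as DNA, on the strand of the gene, from the same annotation, with the anticodon in capitals. mt-Tp, the proline tRNA (chrM:15356-15422, minus strand), and mt-Tt, the threonine tRNA (chrM:15289-15355, plus strand), lie end to end on opposite strands. mt-Ts1, a serine tRNA (chrM:6870-6938, minus strand), and mt-Td, the aspartate tRNA (chrM:6942-7011, plus strand), lie inside the stretch with the chromosome 1 copies and had no reads.
mt-Tp: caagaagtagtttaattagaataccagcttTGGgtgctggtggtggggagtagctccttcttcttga
mt-Tt: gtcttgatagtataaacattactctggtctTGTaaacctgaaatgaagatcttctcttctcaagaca
mt-Ts1: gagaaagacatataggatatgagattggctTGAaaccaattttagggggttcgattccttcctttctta
mt-Td: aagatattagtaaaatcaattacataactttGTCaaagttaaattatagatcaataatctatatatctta

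Levels are the deposited FPKM (fragments per kilobase of gene, scaled per library), and whole reads recovered from them totalled between 15651770 and 20281456 per library. The summed FPKM of the macrophage markers Adgre1, Csf1r, Mrc1, Cx3cr1, Cd68 and Mertk was between 1956 and 2014 in untreated macrophages and between 1714 and 1792 in untreated osteoclasts, with Cd68 called higher in osteoclasts and the other 5 lower. The 8 osteoclast markers, led by Ctsk, summed to between 8.26 and 12.2 FPKM in untreated and 19.3 and 23.4 in LPS-treated macrophages, and to between 28984 and 31979 in the 6 osteoclast libraries. The 4 stromal markers summed to between 24.8 and 34.6 FPKM in untreated and 27.6 and 33.6 in LPS-treated macrophages, and to at most 0.605 in osteoclasts, carried by the collagen genes Col1a1 and Col1a2. The summed markers of T, granulocytic and erythroid cells reached at most 0.159 FPKM in any library, with Cd3d and Hbb-bs at 0 in all. The part of these markers in the results below was not tested.

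LPS-treated macrophage replicate 1 stood apart from its group in the members with identical copies. It held 55.3 FPKM of mt-Co2, 54.1 of mt-Atp6 and 50.1 of mt-Co3, against 22.2 to 22.3, 19.4 to 20.0 and 23.7 to 24.4 in the other 2 libraries. The copies moved with them, with Gm28661 at 55.3 FPKM in replicate 1 and at 24.0 and 19.7 in replicates 2 and 3. Untreated macrophage replicate 3 held 28.4 FPKM of mt-Co2 and 35.4 of mt-Co3, above the 15.2 to 16.7 and 18.1 to 18.3 of replicates 1 and 2, while Gm28661 was at 19.0 there and at 16.2 and 14.8 in replicates 1 and 2.

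Mitochondrially encoded genes took more of the reads in osteoclasts than in macrophages. Their share of assigned reads was 1.504%, 1.58% and 1.62% in the untreated macrophage libraries and 5.90%, 5.37% and 5.49% in the untreated osteoclast libraries. The means were 1.57% ± 0.0585 and 5.59% ± 0.278 (SD, n = 3), a ratio of 3.56 with no overlap between libraries. With LPS the shares were 1.37%, 1.29% and 1.27% in macrophages and 6.18%, 5.16% and 5.48% in osteoclasts, a ratio of 4.28, again with no overlap. An exact two-sided permutation test gave p = 0.1 for each ratio, the smallest that 3 libraries against 3 allow. The share was lower with LPS in macrophages, at a ratio of 0.837 with no overlap (exact permutation p = 0.1), while the osteoclast groups overlapped at a ratio of 1.00 (exact permutation p = 1). The 95% Wilson intervals were at most 0.0110 percentage points to each side and cover counting error only. In bulk RNA, more mitochondrial RNA per cell and less of all other RNA per cell cannot be told apart, nor can a change in the make-up of the cells. The plot of the share by library sets the 6 osteoclast libraries well above the 6 macrophage libraries.

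**Figure D1:**
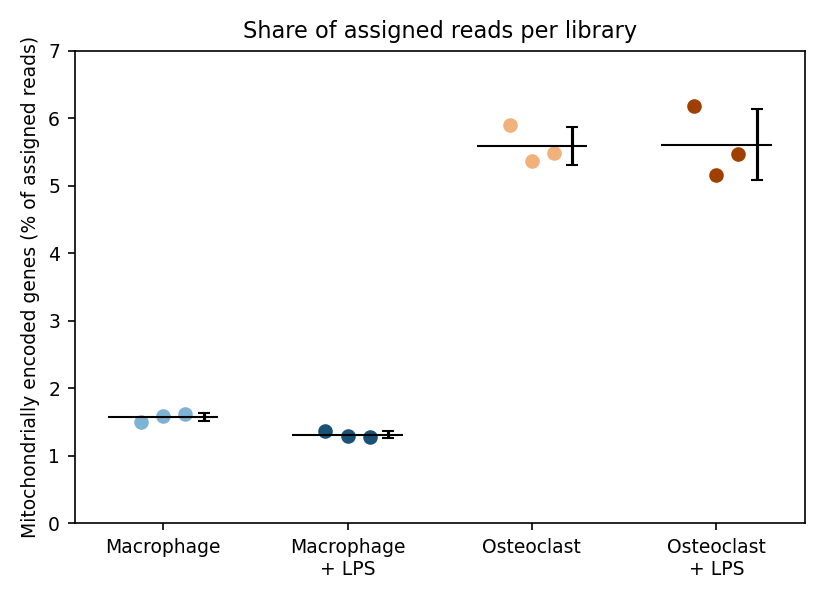
Share of assigned reads that fell on the 37 mitochondrially encoded genes, in percent, with 1 point per library, the group mean as a horizontal line and the SD as an error bar. Macrophage libraries sit between 1.27% and 1.62% and osteoclast libraries between 5.16% and 6.18%.

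The 3 kinds of mitochondrial RNA each took a larger share of reads in osteoclasts. In untreated cells protein-coding genes held 1.52% ± 0.0586 of the reads of macrophages and 5.42% ± 0.271 of those of osteoclasts (SD, n = 3), a ratio of 3.56. The rRNA genes took 0.0396% ± 0.000946 and 0.140% ± 0.00490 (SD, n = 3), a ratio of 3.53. The tRNA genes took 0.00641% ± 0.000249 and 0.0311% ± 0.00195 (SD, n = 3), a ratio of 4.86. Of these tRNA reads mt-Tp alone made up 52.2% in macrophages and 66.7% in osteoclasts, and without it the ratio was 3.37. The differences between these ratios were not tested.

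Among protein-coding members, mt-Co1 led in every group. It encodes the catalytic subunit of cytochrome c oxidase (complex IV), has the identifier ENSMUSG00000064351 and lies at positions 5328 to 6872 of chromosome M. Its level was 3498, 3723 and 3782 FPKM in untreated macrophages, 5099, 4627 and 4681 with LPS, 15742, 14668 and 14878 in untreated osteoclasts and 17267, 14971 and 14946 with LPS. Every osteoclast library was above every macrophage library, and LPS-treated macrophages were above untreated ones, while the osteoclast groups overlapped. The rise with LPS in macrophages holds for the deposited FPKM only and turned under other scalings, as given below. Of all mitochondrial reads it made up 45.0% ± 0.0932 in macrophages and 43.0% ± 0.327 in osteoclasts, both untreated (SD, n = 3).

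In untreated macrophages the order of mean FPKM after mt-Co1 was mt-Nd1 (1698 ± 99.6), mt-Cytb (1412 ± 53.8), mt-Nd2 (778 ± 32.0), mt-Nd5 (732 ± 39.1), mt-Nd6 (723 ± 30.3) and mt-Nd4 (543 ± 21.01; SD, n = 3). The libraries of neighbours overlapped between mt-Nd2, mt-Nd5 and mt-Nd6 and nowhere else in that stretch of the order. The rRNAs followed, with mt-Rnr2 at 136 ± 3.10 and mt-Rnr1 at 109 ± 1.90 FPKM (SD, n = 3), which did not overlap. Next came mt-Nd3 at 29.9 ± 2.95, mt-Co3 at 23.9 ± 9.93, mt-Co2 at 20.1 ± 7.23 and mt-Atp6 at 17.3 ± 0.260 FPKM (SD, n = 3), each overlapping the next. Last came mt-Nd4l at 9.68 ± 0.911 and mt-Atp8 at 0.709 ± 0.485 FPKM (SD, n = 3), neither overlapping its neighbour. The order in osteoclasts was the same down to mt-Rnr1, apart from mt-Nd5 and mt-Nd6, whose libraries overlapped.

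Among protein-coding and rRNA members, those with the lowest levels were inside the stretch repeated on chromosome 1. That stretch holds mt-Co2, mt-Atp8, mt-Atp6, mt-Co3, mt-Nd3, mt-Nd4l and 5 tRNA genes whole, and mt-Co1 and mt-Nd4 cross its ends. Both mt-Co1 and mt-Co2 encode core subunits of complex IV, yet mt-Co1 was between 92.2 and 245 times mt-Co2 in FPKM over the 12 libraries, the lowest in LPS-treated macrophage replicate 1. The level of mt-Co2 was 16.7, 15.2 and 28.4 FPKM in untreated macrophages, 55.3, 22.3 and 22.2 with LPS, 72.1, 74.2 and 72.4 in untreated osteoclasts and 89.7, 70.1 and 71.8 with LPS. Every osteoclast library was above every macrophage library, and within each cell type the groups with and without LPS overlapped. Its identical copy Gm28661 had nearly the same level, with the ratio of mt-Co2 to Gm28661 between 0.930 and 1.49. The ratio of mt-Atp6 to Gm10925 was between 0.776 and 0.915, that of mt-Co3 to Gm28437 between 1.22 and 2.43 and that of mt-Nd4l to Gm10222 between 0.891 and 1.30. Gm10222 was added after its values were seen. The ratio of mt-Nd3 to Gm28438, with 1 mismatch, was higher, between 5.20 and 17.8. mt-Atp8, an ATP synthase subunit whose windows no annotated copy repeats, lies inside the stretch too and had 0 to 21 reads per library. The part of the counting of shared reads in these levels was not tested.

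**Figure D2:**
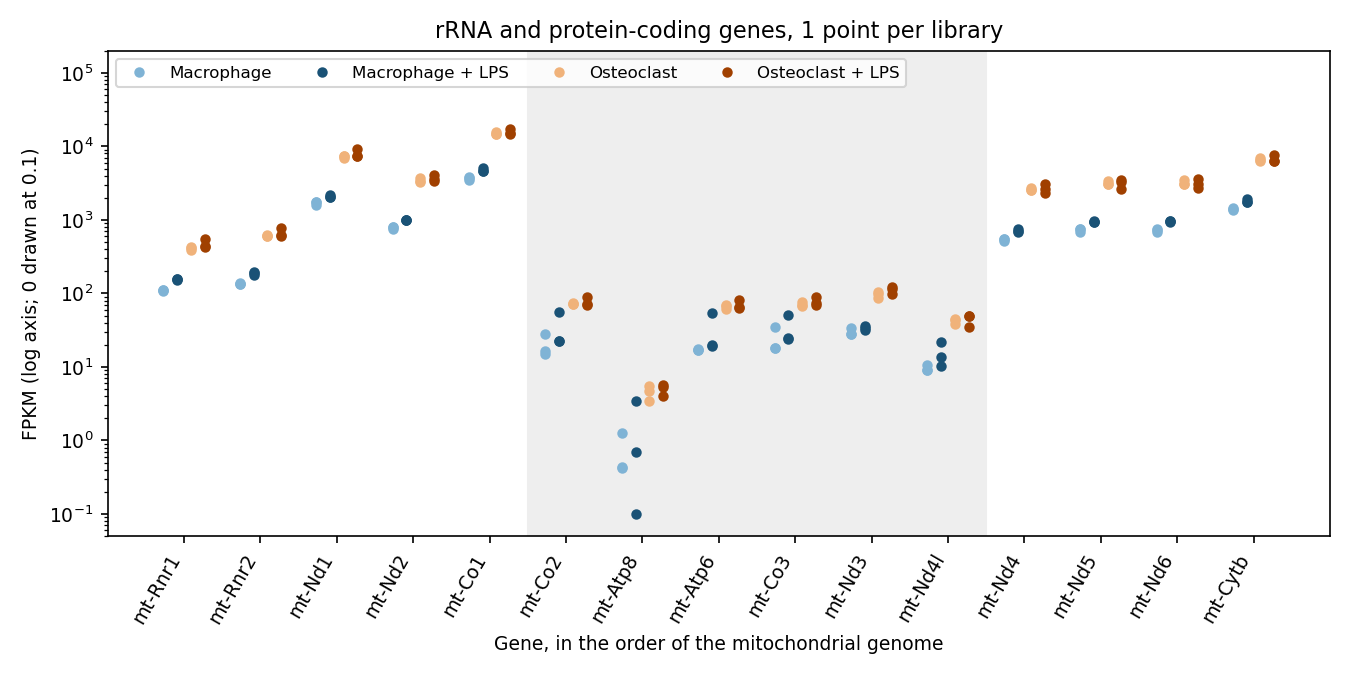
FPKM of the 2 rRNA and 13 protein-coding members in the order of the mitochondrial genome, on a log axis, with 1 point per library and a colour per group. The shaded genes lie whole inside the stretch repeated on chromosome 1 and sit well below their neighbours in all 4 groups, from mt-Co2 to mt-Nd4l.

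**Figure D3:**
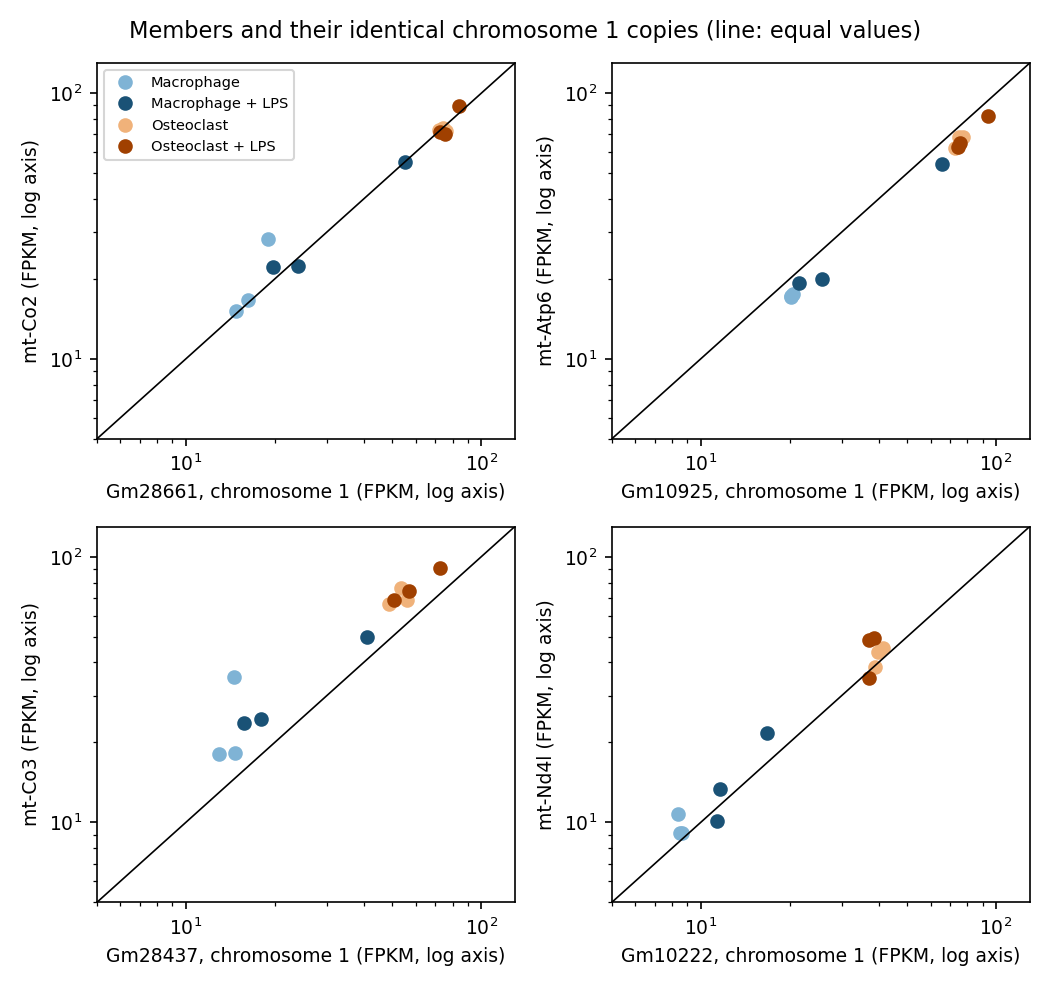
FPKM of 4 members (vertical, log axis) against that of their identical chromosome 1 copies (horizontal, log axis), with 1 point per library, a colour per group and a line of equal values. Points lie near the line, with the ratio of member to copy between 0.776 and 2.43, and LPS-treated macrophage replicate 1 lies apart from the other 5 macrophage libraries in each panel.

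The one protein-coding gene on the minus strand had nearly the same level as its neighbour on the plus strand. mt-Nd6, a complex I subunit gene (positions 13552 to 14070), overlaps the end of mt-Nd5 (positions 11742 to 13565), and the ratio of mt-Nd6 to mt-Nd5 in FPKM was between 0.948 and 1.05 in the 12 libraries. Whether strand was used in counting is not given in the sources used here, so the levels of mt-Nd6 and of the 8 tRNAs on the minus strand cannot be assigned to a strand. mt-Atp8 and mt-Atp6 share bases on the same strand, as do mt-Nd4l and mt-Nd4, and their values are uncertain for that reason too.

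The comparison of untreated osteoclasts with untreated macrophages asks how the mitochondrial transcriptome differs between the precursor and the osteoclast. All 13 protein-coding genes, both rRNAs and 16 of 18 tRNAs tested were higher in osteoclasts, and none was lower. A gene was called at an adjusted p under 0.05 in limma (on log2(FPKM + 1), with Benjamini-Hochberg adjustment over the 11335 genes that reached 1 FPKM in 3 or more libraries). Of all genes tested 38.8% were called higher and 39.0% lower. Log2 differences are given ± SE. Of the 37 members 33 passed the filter on low values, and 4 of these (mt-Tv, mt-Tm, mt-Atp8 and mt-Tt) passed only through osteoclasts, which favours a difference in that direction; without them 28 of 29 were called. The median log2 difference of the protein-coding members was 2.04, against 0 for all genes tested. mt-Nd4 was at 2.26 ± 0.09 (adjusted p 2.06e-10) and mt-Co3 at 1.59 ± 0.29 (adjusted p 2.67e-04), which was 1.90 ± 0.26 (adjusted p 4.58e-05) without untreated macrophage replicate 3. After rescaling to TPM (FPKM scaled to the same sum in every library) the median of all genes moved to -0.38, and 30 of the 31 members called before were called higher there too, where 24.3% of genes were.

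The complex I subunit genes were spread over a narrow range outside the repeated stretch. The log2 differences of mt-Nd1, mt-Nd2, mt-Nd5 and mt-Nd6 were 2.09 ± 0.08 (adjusted p 2.20e-10), 2.15 ± 0.07 (adjusted p 3.47e-11), 2.11 ± 0.08 (adjusted p 2.52e-10) and 2.16 ± 0.09 (adjusted p 2.86e-10). mt-Nd3 and mt-Nd4l, inside it, were at 1.66 ± 0.09 (adjusted p 5.69e-09) and 2.03 ± 0.21 (adjusted p 2.19e-06). mt-Cytb, the only complex III subunit gene of the mitochondrial genome, was at 1352, 1426 and 1456 FPKM in untreated macrophages and 6984, 6302 and 6594 in untreated osteoclasts. Its groups were far apart, with a difference on the log2 scale of 2.23 ± 0.08 (adjusted p 7.51e-11). For complex IV, the log2 difference was 2.04 ± 0.07 (adjusted p 7.08e-11) for mt-Co1 and 1.86 ± 0.31 (adjusted p 1.32e-04) for mt-Co2. For the ATP synthase genes it was 1.88 ± 0.29 (adjusted p 8.00e-05) for mt-Atp6 and 1.72 for mt-Atp8, the latter as a description because mt-Atp8 passed the filter only through osteoclasts.

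Both rRNAs were higher in osteoclasts, mt-Rnr2 more so. mt-Rnr1, the small-subunit rRNA, was at 110.0, 107 and 109.6 FPKM in untreated macrophages and 426, 385 and 418 in untreated osteoclasts, a difference on the log2 scale of 1.90 ± 0.07 (adjusted p 2.06e-10). mt-Rnr2, the large-subunit rRNA, was at 134, 133 and 139 FPKM and at 629, 601 and 609 FPKM, a difference on the log2 scale of 2.17 ± 0.08 (adjusted p 1.31e-10). The ratio of mt-Rnr2 to mt-Rnr1 was 1.22, 1.25 and 1.27 in untreated macrophages and 1.48, 1.56 and 1.46 in untreated osteoclasts, which did not overlap (exact permutation p = 0.1). The level of mt-Nd1 relative to mt-Rnr2 was between 10.7 and 13.01 in all libraries. Libraries were made from total RNA as labelled, and whether rRNA or poly(A) selection was used is not given in the sources used here, so rRNA and tRNA levels need not reflect their cellular abundance.

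Among tRNAs, mt-Tp and mt-Tt stood out. mt-Tp was at 413, 417 and 371 FPKM in untreated macrophages and 3192, 2923 and 2932 in untreated osteoclasts, by far the highest of the 22 tRNAs in either. The groups were far apart, with a difference on the log2 scale of 2.91 ± 0.09 (adjusted p 3.40e-11). mt-Tt had 2 reads over the 3 untreated macrophage libraries and 87 over the 3 untreated osteoclast libraries, at 21.8, 32.7 and 20.2 FPKM in the latter. The ratio of their read rates was 57.3, with an exact 95% counting interval from 15.4 to 481. For mt-Tv, the valine tRNA, with 2 and 19 reads, the ratio was 12.5 with an interval from 3.02 to 111. These ratios are a description, since both tRNAs passed the filter only through osteoclasts, and the intervals cover counting error only. The other tRNAs called higher were between 1.32 (mt-Ts2) and 2.52 (mt-Ty) in log2 difference. mt-Ta, the alanine tRNA, at 0.92 ± 0.57 (adjusted p 0.160), and mt-Tm, the methionine tRNA, at 0.90 ± 0.65 (adjusted p 0.231), were not called. mt-Ta had 4, 7 and 1 reads in macrophages and 5, 4 and 10 in osteoclasts, which overlapped, and mt-Tm had 4, 3 and 1 and 1, 5 and 12. mt-Tf, the phenylalanine tRNA, had no reads in any library, like mt-Ts1 and mt-Td, where 3 reads would be worth between 1.82 and 3.46 FPKM, and mt-Tk, the lysine tRNA, had 4 reads in all.

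**Figure D4:**
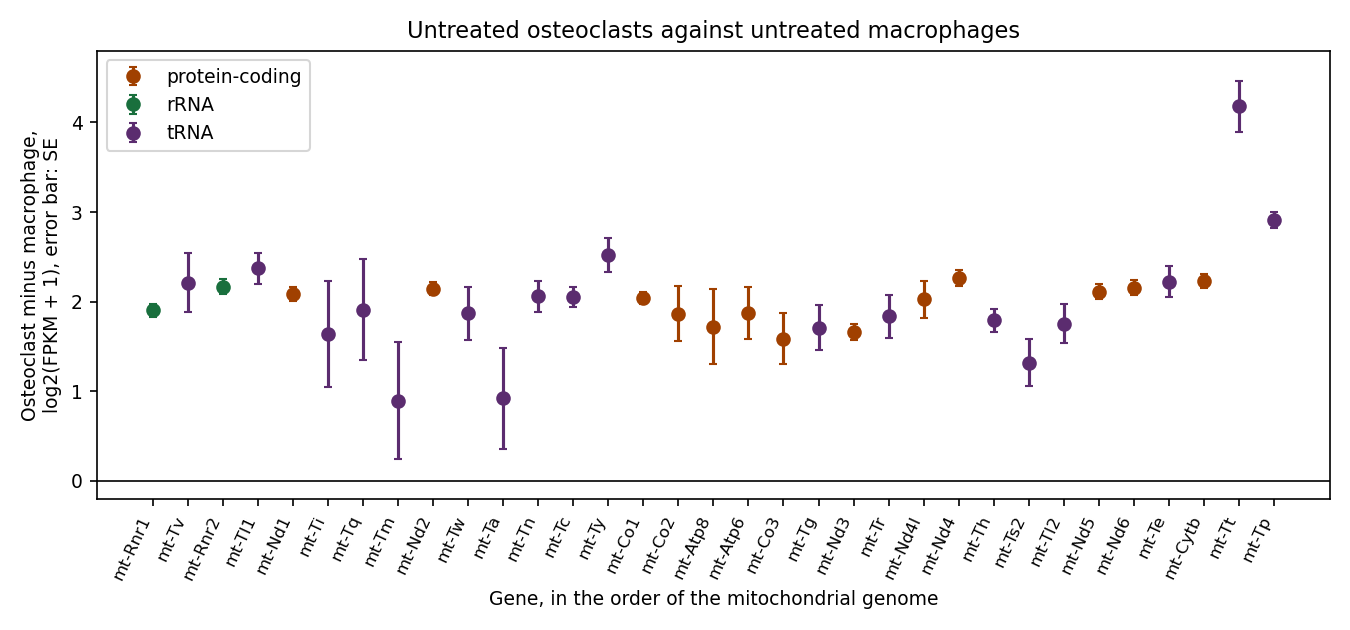
Difference between untreated osteoclasts and untreated macrophages in log2(FPKM + 1) for the 33 members tested, in the order of the mitochondrial genome, with SE as error bars and a colour per kind of RNA. Most members lie near 2, the median of all genes is at 0, and mt-Tt and mt-Tp, at the end of the order, are highest at 4.18 and 2.91.

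To ask which members departed from the common shift, every gene was also expressed relative to the mean log2(FPKM + 1) of the 13 protein-coding members, and, after the data were seen, relative to the mean of mt-Nd1, mt-Nd2, mt-Nd5, mt-Nd6 and mt-Cytb alone. The second reference leaves out the members that LPS-treated macrophage replicate 1 moves. Between untreated cells 9 members were called under each reference and 6 under both, where 96.4% and 97.9% of all genes were called. Without the 4 members that passed the filter only through osteoclasts these counts were 7 and 4. Of the 4, mt-Tp departed upward, by 0.93 (adjusted p 3.79e-08) and 0.76 (adjusted p 4.61e-07) in limma. The other 3 departed downward, mt-Co3 by -0.39 and -0.56, mt-Ts2 by -0.66 and -0.83 and mt-Ta, with few reads, by -1.06 and -1.23. Among those that passed only through osteoclasts, mt-Tt was at 2.20 and 2.03 and mt-Tm at -1.09 and -1.25, given as a description. The value of mt-Co3 rests on untreated macrophage replicate 3, without which it was -0.14 (adjusted p 0.503 in limma) and -0.27. With each of the 12 libraries left out in turn, under the first reference, mt-Co3 lost its call 3 times, mt-Ta lay between -1.57 and -0.65 and mt-Tm between -1.74 and -0.34. The value of mt-Tt rests on 2 macrophage reads and depends on the pseudocount of 1. Under the first reference limma took each gene's spread from the trend with mean level over all genes, and the SE of mt-Tm was 0.19 there against 0.57 under the second. The ratio of mt-Tp to mt-Cytb in FPKM shows its departure without a model, at 0.306, 0.292 and 0.255 in untreated macrophages and 0.457, 0.464 and 0.445 in untreated osteoclasts. It was 0.244, 0.326 and 0.317 in LPS-treated macrophages and 0.489, 0.529 and 0.480 in LPS-treated osteoclasts, so that no macrophage library reached an osteoclast library.

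With LPS in both cell types, 32 of the 33 members tested were higher in osteoclasts, where 40.9% of all genes were called higher and 43.0% lower. All 13 protein-coding genes and both rRNAs were among them. Without the 4 members that passed the filter only through osteoclasts the count was 28 of 29. The glutamine tRNA mt-Tq was not called, at 1.03 ± 0.56 (adjusted p 0.108). The median log2 difference of the protein-coding members was 1.70, against -0.02 for all genes. mt-Co1 was at 1.71 ± 0.07 (adjusted p 2.51e-10), mt-Cytb at 1.90 ± 0.08 (adjusted p 2.26e-10) and mt-Tp at 2.66 ± 0.09 (adjusted p 5.11e-11). For mt-Tt, with 71 reads against 2, the ratio of read rates, again a description, was 27.7 with a counting interval from 7.39 to 233. For mt-Ta, with 28 reads against 2, it was 10.9 with an interval from 2.76 to 94.7. Relative to the protein-coding mean, 9 members departed with all 13 as reference, 10 with the 5 genes and 5 under both, where 93.3% and 96.1% of all genes departed, and 8, 9 and 4 without the 4 members that passed only through osteoclasts. mt-Tp was at 1.01 and 0.84, the leucine tRNA mt-Tl1 at 0.57 and 0.39, mt-Co3 at -0.35 and -0.52, mt-Atp6 at -0.36 and -0.53 and mt-Tt, again as a description, at 2.02 and 1.85. The values of mt-Co3 and mt-Atp6 rest on LPS-treated macrophage replicate 1, without which they were -0.18 and -0.20 (adjusted p 0.297 under the first reference, in limma) and -0.064 and -0.081 (adjusted p 0.498). With each of the 12 libraries left out in turn they were not called under the first reference in 10 and 8 of the fits. The values of mt-Ts2, mt-Ta and mt-Tm, below 0 between untreated cells, were not called lower with LPS, where they were at 0.33 and 0.15, at 0.79 and 0.62, and at 0.14 and -0.038. In limma mt-Ta was called higher under the first reference (adjusted p 1.69e-05) but not under the second (adjusted p 0.252). The change of these departures with LPS was called under both references for mt-Ta (1.85 and 1.84) and mt-Ts2 (0.99 and 0.98), where 38.8% and 58.2% of all genes were called.

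Whether LPS raised or lowered mitochondrial transcripts in macrophages depended on the scaling. In the deposited FPKM, whose denominators follow median-of-ratios size factors and so hold the typical gene level, 12 of 33 members were called higher and none lower, where 36.8% of all genes were called higher and 33.1% lower. At an unadjusted p under 0.05 the count was 14 of 33, where 72.3% of all genes passed. After rescaling to TPM, 0 were called higher and 17 lower, where 15.9% of all genes were called higher and 70.0% lower, with the median of all genes at -0.55. After quantile normalization 0 were called higher and 13 lower, where 26.9% of genes were higher and 45.8% lower, with their median at -0.14. Relative to the median gene, the median member was 0.34 higher in the deposited FPKM, 0.30 higher in TPM and 0.21 lower after quantile normalization. The share of reads fell, as given above.

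The 12 called in the deposited FPKM were mt-Rnr1, mt-Rnr2, mt-Nd1, mt-Nd2, mt-Nd4, mt-Nd4l, mt-Nd5, mt-Nd6, mt-Co1, mt-Cytb, mt-Tn and mt-Tp. mt-Rnr1 was at 110.0, 107 and 109.6 FPKM without and 154, 157 and 158 with LPS, with no overlap. Its log2 difference was 0.52 ± 0.07 (adjusted p 4.93e-05) as deposited and -0.12 in TPM (not called). mt-Co1 was at 0.39 ± 0.07 (adjusted p 3.75e-04) as deposited and -0.26 in TPM (adjusted p 0.00123), and mt-Nd1 at 0.30 ± 0.08 (adjusted p 0.00647) and -0.35 (adjusted p 4.59e-04), all in limma. mt-Nd4l, a complex I subunit gene with an identical copy, was at 9.15, 9.16 and 10.7 FPKM without and 21.6, 10.2 and 13.4 with LPS. Its groups overlapped, and its difference of 0.53 ± 0.21 (adjusted p 0.0413) was 0.25 and not called without LPS-treated replicate 1. mt-Co2, mt-Atp6 and mt-Co3 were at 0.62 ± 0.31, 0.65 ± 0.29 and 0.42 ± 0.29 and were not called, and without that replicate they were at 0.19, 0.17 and 0.076.

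In osteoclasts no member was called after LPS, where limma called 17.7% of all genes in either direction. At an unadjusted p under 0.05, which 31.2% of all genes passed, the count was 1, and voom on the recovered reads also called 1. mt-Co1 was at 15742, 14668 and 14878 FPKM without and 17267, 14971 and 14946 with LPS, a difference of 0.06 ± 0.07 (adjusted p 0.649). LPS-treated replicate 1 was the highest of the 6 libraries for mt-Co1 and for the share of reads. mt-Rnr1 had the lowest adjusted p, at 0.0924 for a difference of 0.20 ± 0.07, with 426, 385 and 418 FPKM without and 543, 430.1 and 442 with LPS, which did not overlap. The protein-coding members lay between -0.05 and 0.20, with a median of 0.07 against 0.01 for all genes. In TPM no member was called either.

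**Figure D5:**
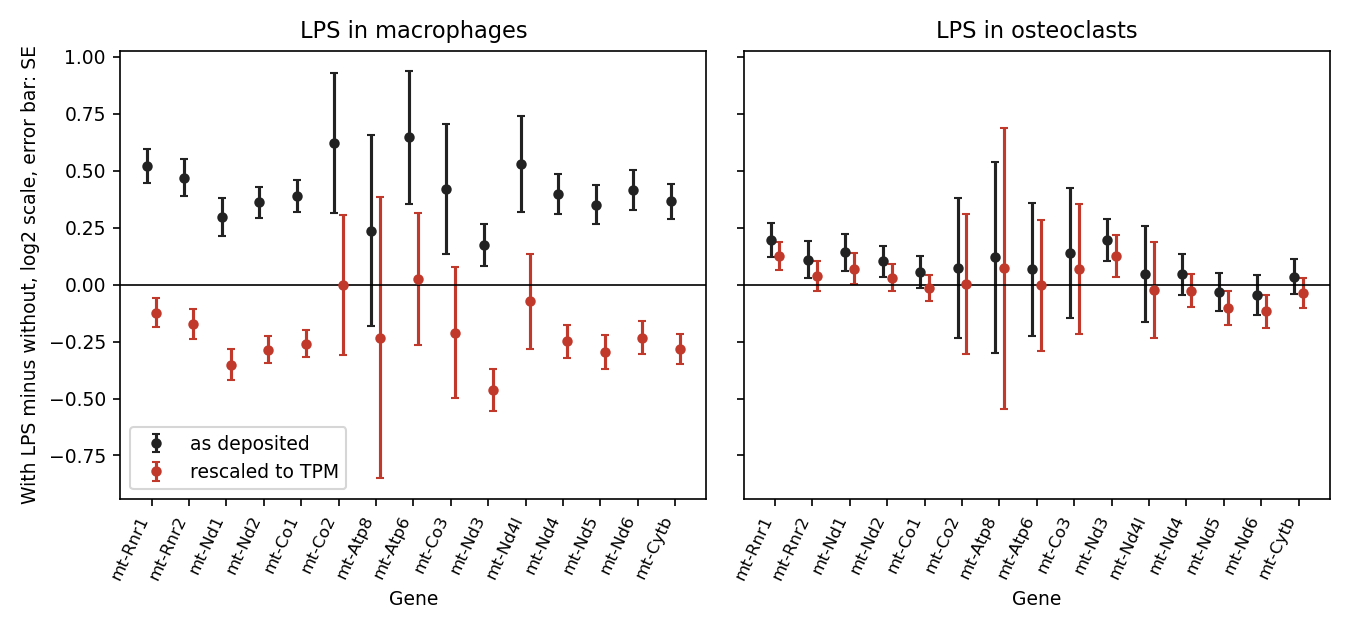
LPS effect on the log2 scale, with SE as error bars, for the rRNA and protein-coding members in macrophages (left) and osteoclasts (right), from the deposited FPKM (black) and after rescaling to TPM (red). In macrophages mt-Co1 is at 0.39 as deposited and at -0.26 in TPM, while in osteoclasts it is at 0.06 and -0.01.

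The interaction, which subtracts the macrophage LPS effect from the osteoclast one, was called below 0 for 8 of 33 members and above 0 for none, where 30.0% of all genes were called below 0 and 26.6% above. The 8 were 6 protein-coding genes (mt-Nd2, mt-Nd4, mt-Nd5, mt-Nd6, mt-Co1 and mt-Cytb) and both rRNAs. The count was 1 with no filter on low values and 5 without untreated osteoclast replicate 1. mt-Nd6 had the lowest adjusted p, whose LPS effect was 0.41 in macrophages but -0.05 in osteoclasts, so that the interaction stood at -0.46 ± 0.12 (adjusted p 0.00717). mt-Co1 was at -0.33 ± 0.10 (adjusted p 0.0139) and mt-Rnr2 at -0.36 ± 0.11 (adjusted p 0.0174). The direction differed between scalings here too. In TPM 11 members were called above 0 and 0 below, where 63.3% of genes were above 0 and 13.9% below, with a median gene at 0.51. Quantile normalization gave 12 above 0 and 0 below, where 36.1% of genes were above and 24.1% below. Relative to the median gene, the median member was at -0.30 as deposited, -0.27 in TPM and 0.34 after quantile normalization.

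The values assigned to the pseudogene copies were also higher in osteoclasts. Reads from a stretch where copy and member are identical cannot be told apart, so these values need not be the copies' own. The part of reads from the members in them was not tested. Of the 9 copies in the list 8 passed the filter on low values, and 8 were higher in osteoclasts both without LPS, where 38.8% of all genes were called higher, and with it, where 40.9% were. Gm28661, the copy of mt-Co2, averaged 16.7 ± 2.13 FPKM in untreated macrophages and 74.0 ± 2.18 in untreated osteoclasts (SD, n = 3), a difference on the log2 scale of 2.09 ± 0.27 (adjusted p 1.76e-05). The diverged copy Gm13340 of mt-Co1 was at 1.95, 1.68 and 1.74 FPKM in untreated macrophages and 7.89, 8.58 and 8.04 in untreated osteoclasts, and mt-Co1 was between 1709.7 and 2452 times its level over the 12 libraries. Its log2 difference was 1.72 ± 0.07 (adjusted p 1.67e-10). With LPS 6 of the 8 were called higher in macrophages as deposited, where 36.8% of all genes were, and 5 without LPS-treated replicate 1. In TPM 1 was higher and 1 lower, where 15.9% and 70.0% of all genes were. Gm28438 was at 0.93 ± 0.19 (adjusted p 7.61e-04) while its member mt-Nd3 was at 0.17 ± 0.09 (adjusted p 0.115), and the difference between copy and member was not tested. Gm28437, the copy of mt-Co3, was not called without LPS-treated replicate 1, at 0.24 (adjusted p 0.113). In osteoclasts limma called 0 of the 8, where 17.7% of all genes were called in either direction.

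Nuclear genes that serve the mitochondrial genome were read from lists. Of 18 genes of mitochondrial DNA upkeep and transcription 15 were tested, and 7 were higher and 3 lower in untreated osteoclasts, with a median log2 difference of 0.16 against 0 for all genes. Of those called that averaged at least 1 FPKM, which holds for all genes named from the lists, the highest were Tfb2m, a factor that opens the mitochondrial promoter, from 5.58 ± 0.340 to 10.5 ± 0.536 FPKM (SD, n = 3; 0.80 ± 0.07, adjusted p 4.59e-07), Twnk, the replicative helicase (0.70 ± 0.13, adjusted p 4.03e-04), and Ssbp1, the single-strand binding protein (0.47 ± 0.08, adjusted p 2.87e-04). The lowest were Polg, the catalytic subunit of the mitochondrial DNA polymerase, from 7.21 ± 0.485 to 3.34 ± 0.146 FPKM (SD, n = 3; -0.92 ± 0.07, adjusted p 1.05e-07), its accessory subunit Polg2 (-0.68 ± 0.08, adjusted p 6.87e-06) and the exonuclease Mgme1 (-0.28 ± 0.09, adjusted p 0.00990). In TPM the counts turned to 4 higher and 6 lower. Of all genes 38.8% were higher and 39.0% lower as deposited, and 24.3% and 57.0% in TPM, and the counts of this and the next 3 lists stand beside these shares.

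Of 33 genes of mitochondrial RNA processing, modification and decay, all tested, 22 were higher and 6 lower in untreated osteoclasts (17 and 8 in TPM), with a median of 0.60. Hsd17b10 and Trmt10c, which together form the tRNA-binding part of mitochondrial RNase P, led, at 2.30 ± 0.05 (adjusted p 2.52e-12) and 1.77 ± 0.05 (adjusted p 1.30e-11). Hsd17b10 went from 20.6 ± 0.993 to 106 ± 6.17 FPKM and Trmt10c from 7.40 ± 0.381 to 27.7 ± 1.24 FPKM (SD, n = 3). Fastk, of a family of mitochondrial RNA-binding proteins, followed at 1.59 ± 0.06 (adjusted p 9.56e-11). Its relative Fastkd3 was lowest at -0.72 ± 0.08 (adjusted p 6.31e-06), with the oligoribonuclease Rexo2 at -0.46 ± 0.06 (adjusted p 9.87e-06) and the pseudouridine synthase Trub2 at -0.44 ± 0.07 (adjusted p 1.58e-04).

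The nuclear-encoded partners of the mitochondrial proteins were higher in untreated osteoclasts too. Of 76 genes for nuclear respiratory chain and ATP synthase subunits 75 were tested and 75 were higher (73 in TPM), with a median of 1.68 beside the 2.04 of the protein-coding members. The highest were the complex III subunits Cyc1 (2.75 ± 0.05, adjusted p 1.56e-13), Uqcrc2 (2.60 ± 0.04, adjusted p 1.45e-13) and Uqcrfs1 (2.53 ± 0.04, adjusted p 2.61e-13). The medians by complex were 1.53 for complex I, 2.00 for complex II, which has no mitochondrially encoded subunit, 2.12 for complex III, 1.63 for complex IV and 1.72 for the ATP synthase. Of 78 mitochondrial ribosomal protein genes, whose products join the 2 rRNAs, 77 were tested, 74 were higher and 1 lower (Mrpl33, -0.34 ± 0.08, adjusted p 0.00174), with a median of 0.79, and in TPM 58 were higher and 6 lower. The highest there were Mrps6 (2.46 ± 0.08, adjusted p 4.85e-11), Mrpl41 (2.21 ± 0.10, adjusted p 1.07e-09) and Mrps35 (1.94 ± 0.05, adjusted p 1.17e-11).

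With LPS in macrophages, 3 of the 15 upkeep and transcription genes were higher and 7 lower, and in TPM 0 were higher and 12 lower. Of all genes 36.8% were higher and 33.1% lower as deposited, and 15.9% and 70.0% in TPM, and the other lists given for LPS in macrophages stand beside the same shares. The lowest were Mgme1 (-1.20 ± 0.09, adjusted p 8.16e-08), the mitochondrial RNA polymerase Polrmt (-0.81 ± 0.07, adjusted p 4.28e-07) and Twnk (-0.77 ± 0.13, adjusted p 2.40e-04). Polrmt averaged 3.74 ± 0.222 FPKM without and 1.71 ± 0.149 with LPS (SD, n = 3). The highest were the elongation factor Tefm (0.57 ± 0.08, adjusted p 4.41e-05), Polg2 (0.50 ± 0.08, adjusted p 1.29e-04) and Rnaseh1 (0.34 ± 0.09, adjusted p 0.00654), the last below 0 in TPM, at -0.23. Of the 33 RNA processing genes 8 were higher and 16 lower, and 3 and 27 in TPM. Pnpt1, which encodes a mitochondrial polynucleotide phosphorylase, went from 8.17 ± 0.285 to 34.5 ± 3.41 FPKM (SD, n = 3; 1.95 ± 0.07, adjusted p 2.23e-10), and Trmt61b (0.91 ± 0.07, adjusted p 1.09e-07) and Ptcd1 (0.77 ± 0.06, adjusted p 2.55e-07) came next. The lowest were the rRNA methyltransferases Mrm2 (-1.38 ± 0.17, adjusted p 1.51e-05) and Mrm1 (-1.24 ± 0.07, adjusted p 9.87e-09) and Fastkd3 (-1.30 ± 0.08, adjusted p 3.35e-08). Of the 75 nuclear respiratory chain genes 40 were higher and 1 lower as deposited, and 0 and 73 in TPM.

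In osteoclasts limma called none of the 15 upkeep and transcription genes after LPS, and of the 33 RNA processing genes 4 were higher and 2 lower (0 and 2 in TPM), where 11.1% and 6.59% of all genes were called higher and lower (8.29% and 10.8% in TPM). Of the 75 nuclear respiratory chain genes 8 were higher, a share near that of all genes, and 0 in TPM.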

How the data were processed

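RNA of 12 libraries was extracted with the PureLink kit and on-column DNase I and sequenced after NEBNext Ultra preparation, per the labels' protocols. The authors deposited 1 table of FPKM per gene; the submitters' processing notes name fastp, STAR, featureCounts, DESeq2 and build mm10, without versions. Identifiers were matched to GENCODE M21 on GRCm38 (54409 of 54532, 123 not matched). FPKM times gene length gave whole reads (tolerance 0.02) at the annotated length for 96.7% of the 25854 genes above 0 and for all 37 members, and the denominators differed from median-of-ratios scaling by at most 2.83e-08%. The other genes above 0 were given the smallest length that made their values whole, so their reads, and the library totals, could be too low. These recovered reads gave depths, shares and counting intervals, and voom on them was an alternative.

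limma 3.58.1 in R 4.3.3 was fitted to log2(FPKM + 1) over all 4 groups, for the 11335 genes that reached 1 FPKM in 3 or more libraries, with Benjamini-Hochberg adjustment over all of them and a call at adjusted p under 0.05. A fold change on this scale understates the change of low genes. Shares and ratios were compared with exact permutation tests (scipy 1.17.1). The code was checked on simulated data. Alternatives were pseudocount 0.1, no or another filter, TPM, TPM over nuclear genes, quantile normalization, voom, other references for departures, only the groups compared, a replicate block and leaving out each library. Sequences were read from the GENCODE M21 transcripts. Of other lists, the 3 highest and 3 lowest called genes averaging at least 1 FPKM were named. The members and lists were chosen with earlier results of these data known. Strand and multi-mapping settings are not given in the sources used here.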

Additional observations from a re-analysis of the deposited data

Results flagged for a closer look

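The LPS effect differed between osteoclasts and macrophages, by an interaction term in limma on the deposited FPKM, for 3 members named here. They are among the 8 of 33 members called below 0, where 30.0% of all genes were called below 0 and 26.6% above. The difference was -0.46 for mt-Nd6, -0.33 for mt-Co1 and -0.36 for mt-Rnr2 on the log2 scale. After rescaling to TPM these were 0.12, 0.25 and 0.21, with only mt-Co1 of the 3 passing the adjusted threshold there (adjusted p 0.0175). After quantile normalization they were 0.68 (adjusted p 4.78e-06), 0.14 (adjusted p 0.468) and 0.42 (adjusted p 8.64e-04), so that all 3 had the opposite sign under both other scalings.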

How the results depend on the processing

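Counts of members higher in osteoclasts were between 29 and 31 without LPS and 28 and 32 with LPS over the alternatives run. They were lowest with a mean of at least 5 FPKM required. The share ratios of osteoclasts to macrophages, with a library left out, were 3.46 to 3.63 without LPS and 4.06 to 4.45 with LPS. That for LPS in macrophages was 0.817 to 0.850. For shares of summed FPKM, both ratios of osteoclasts to macrophages lay below these ranges. Every osteoclast library was still above every macrophage library there. The share ratio for LPS in osteoclasts, 1.00, was 0.999 for summed FPKM and 0.952 to 1.04 with a library left out.
For LPS in macrophages, members called higher went from 12 to 0 in TPM, in TPM over nuclear genes and after quantile normalization, and those lower from 0 to 17, 17 and 13, to 2 with pseudocount 0.1 and to 1 with only the groups compared; with a library left out they were 10 to 18 and 0 to 2. In osteoclasts those higher went from 0 to 1 with only the groups compared and with voom, and 0 to 1 with a library left out. For the interaction, those below 0 went from 8 to 1 with no filter and to 0, 0 and 0 in TPM, TPM over nuclear genes and after quantile normalization, those above 0 from 0 to 11, 11 and 12; with a library left out they were 5 to 11 and 0 to 2.
In TPM, TPM over nuclear genes and quantile normalization, the LPS effect in macrophages turned to -0.12, -0.13 and -0.37 for mt-Rnr1, -0.26, -0.27 and -0.030 for mt-Co1, -0.35, -0.36 and -0.84 for mt-Nd1, -0.23, -0.24 and -0.75 for mt-Nd6 and -0.061, -0.072 and -0.052 for mt-Tn, and in the first 2 to -0.0741 and -0.0848 for mt-Nd4l and -0.23 and -0.24 for Rnaseh1. The interaction turned to 0.12, 0.13 and 0.68 for mt-Nd6, 0.25, 0.26 and 0.14 for mt-Co1 and 0.21, 0.22 and 0.42 for mt-Rnr2. The cause was not tested.
Departures from the protein-coding mean went, with the median of the 13 as reference, from 9 to 14 without LPS, 9 to 14 with LPS, 2 to 0 for LPS in osteoclasts and 5 to 3 for the interaction, and with 5 genes from 2 to 0 and 5 to 3 for the last 2. With a library left out they were 6 to 13, 5 to 18 (5 without LPS-treated macrophage replicate 1 and 18 without replicate 2), 4 to 11 for LPS in macrophages, 0 to 2 and 2 to 6.
Same-numbered libraries of different groups correlated, in their deviations from the group means, between -0.07 and 0.104 over 18 pairs. Differently numbered libraries were not compared in this way, so whether the numbers pair the libraries remains unknown. With the replicate number as a block the counts were 31, 32, 13 and 0 higher and 8 below 0 for the interaction, and 10, 12, 7, 2 and 6 departures. Of 1516 comparisons of single genes across alternatives 1456 kept direction and side of the threshold, 28 reversed, 21 lost and 11 gained the call. Depth limits the tRNAs with few reads.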
